A study of Mus musculus with 19 samples.

Results

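Liver RNA of 6 mice at involution day 6 was compared with that of 4 nulliparous mice. The comparison used 10 of the 19 mice of the study, namely every involution day 6 mouse and the nulliparous mice whose animal number was 200 or above (NUL_220, NUL_221, NUL_226 and NUL_227). All involution mice carried numbers above 200 (ID6_201, ID6_209, ID6_216, ID6_218, ID6_230 and ID6_232), so these nulliparous mice were the ones in the same range of numbers. The range is not a batch that the labels name. All 10 animals were female, of the strain labelled Balbc and 12 weeks old according to the labels. Nulliparous mice had never been pregnant, whereas involution day 6 mice had given birth and nursed, and their pups had been removed 6 days before the liver was taken. No transgene, drug or deletion was given for either group. Each library came from the flash frozen liver of 1 animal. The 3 mice at lactation day 10 LAC_200, LAC_213 and LAC_240 are given as values beside the named genes, without a test.

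The liver of a nursing rodent enlarges and makes more lipid and cholesterol for milk, and after weaning it returns toward its earlier size, a process called involution. Hepatocytes make cholesterol from acetyl-CoA through the mevalonate pathway, and the genes of that pathway are switched on together by the transcription factor SREBP2 when the sterol content of the endoplasmic reticulum falls. The liver also holds resident macrophages, the Kupffer cells, which line the sinusoids and take up debris and aged red cells.

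Values are TPM, transcript abundances scaled for gene length and library size, so levels can be compared between genes. Differences are means of log2(TPM + 1) at involution day 6 minus nulliparous, with a standard error (SE), from limma-trend over the 11632 genes with a mean of 1 TPM or more in the 10 mice. This scale understates changes of genes at low TPM. Fold values are ratios of mean TPM. A gene is said to have risen or fallen where its adjusted p was under 0.05. Without adjustment, 1535 of the 11632 genes had a p under 0.05. That share is the one to set beside the unadjusted counts of each list below. With the adjusted threshold 117 genes (1.01% of those tested) differed, of which 74 rose (0.636%) and 43 fell (0.37%). Among them, 6 rose (0.0516%) and 19 fell (0.163%) by a log2 difference of 1 or more. The median difference over all tested genes was 0.05, and 65.4% of genes had a difference above 0. How the calls divided between higher and lower depended on how the libraries were scaled. Of the genes past the threshold, 63.2% were higher with TPM as deposited, 28.4% after median-ratio scaling of the libraries, 38.3% after quantile normalization and 53.8% after rescaling without the mitochondrial, hemoglobin and 10 most abundant genes. Of the 25 genes with a log2 difference of 1 or more, 24 were called again under median-ratio scaling.

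Libraries differed within the groups. Genes at 1 TPM or more numbered 11390 to 11797, and 25.7% to 28.8% of TPM lay in the 10 top genes. In 4 libraries (NUL_227 and ID6_201, ID6_209 and ID6_216) the ribosomal protein gene Rps27 was at 1001 to 1220 TPM, against 1879 to 2163 in the other 6. The small nuclear RNA Rn7sk was at 159 to 380 TPM in NUL_227, ID6_201 and ID6_209 and at 2.97 to 11.5 TPM in the other 7, ID6_216 included. Genes of the mitochondrial genome held 11.7% to 13.3% of TPM in nulliparous mice and 7.98% to 11.3% at involution day 6. Without these 4 libraries, 3 mice per group remained and 1 gene rose and 5 fell. With low Rps27 as a covariate, 65 rose and 40 fell. Both settings were chosen after the data were seen. The hepatocyte markers were alike in both groups, with summed levels of 106354 to 131039 TPM in nulliparous and 116351 to 158154 TPM at involution, and 0 of 12 passed in limma, or had an unadjusted p under 0.05.

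**Figure D1:**
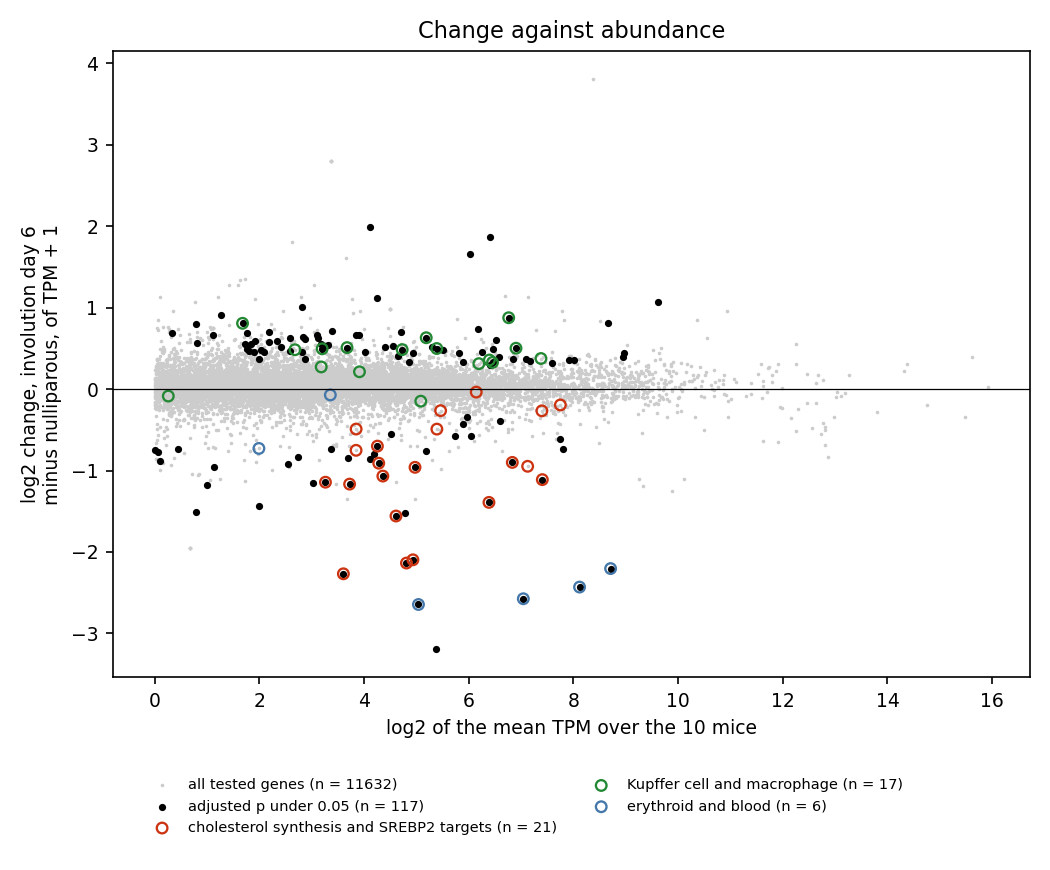
Log2 difference of each tested gene (vertical axis, involution day 6 minus nulliparous, of TPM + 1) against the log2 of its mean TPM over the 10 mice (horizontal axis). Black points are the 117 genes with an adjusted p under 0.05, and open circles mark members of 3 gene lists. The 21 cholesterol genes circled (red), of the 25 listed, all lie below 0. Of the 6 red cell genes (blue), the 4 hemoglobin genes lie between -2.64 and -2.20, Alas2 at -0.73 and Bpgm at -0.07.

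Cholesterol synthesis genes were lower at involution day 6 than in nulliparous liver. Of the 25 listed genes of cholesterol synthesis and SREBP2 control, all were tested, 16 fell and 0 rose, beside 0.37% of all genes that fell. Of these, 9 fell by a log2 difference of 1 or more. The median difference of the list was -0.90, and each of the 25 was below 0. The list was chosen with earlier results of these data known, so its contrast with all genes is not independent of them. The summed level of the list was 1740 to 2521 TPM in nulliparous mice, 1067 to 1548 TPM at involution day 6 and 2989 to 3779 TPM in the lactating mice.

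The 250 bases before the RefSeq transcription start (GRCm38.p6) are shown for 4 of the genes that fell, since these promoters share a short motif. Capitals mark CCAAT (or ATTGG on the other strand), the letters bound by NF-Y, and the sterol response element letters TCACNCCAC, with both strands searched.
Hmgcs1 (chr13:119690101-119690350, plus strand): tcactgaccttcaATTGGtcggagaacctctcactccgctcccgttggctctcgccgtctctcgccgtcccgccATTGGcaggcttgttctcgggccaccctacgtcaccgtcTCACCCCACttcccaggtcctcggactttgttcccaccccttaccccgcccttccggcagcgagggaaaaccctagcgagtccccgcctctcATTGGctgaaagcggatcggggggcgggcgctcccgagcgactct
Idi1 (chr13:8885356-8885605, plus strand): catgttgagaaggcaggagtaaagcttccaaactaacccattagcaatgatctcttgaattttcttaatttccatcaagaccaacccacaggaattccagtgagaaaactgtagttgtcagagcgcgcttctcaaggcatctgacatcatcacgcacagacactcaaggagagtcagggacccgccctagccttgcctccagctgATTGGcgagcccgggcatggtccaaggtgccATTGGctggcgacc
Cyp51 (chr5:4104698-4104947, minus strand): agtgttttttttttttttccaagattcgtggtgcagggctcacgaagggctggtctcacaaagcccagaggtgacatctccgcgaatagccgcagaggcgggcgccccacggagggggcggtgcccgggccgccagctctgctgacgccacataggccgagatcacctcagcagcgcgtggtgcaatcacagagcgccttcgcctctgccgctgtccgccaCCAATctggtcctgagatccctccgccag
Msmo1 (chr8:64733579-64733828, minus strand): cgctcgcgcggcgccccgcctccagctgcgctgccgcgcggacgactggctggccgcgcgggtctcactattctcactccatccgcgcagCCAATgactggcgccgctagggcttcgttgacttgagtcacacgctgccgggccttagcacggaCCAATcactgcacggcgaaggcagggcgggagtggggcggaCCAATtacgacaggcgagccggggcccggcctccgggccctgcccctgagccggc

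Of the 16 genes that fell, 10 were matched by symbol to the promoter table, and 10 of these 10 held CCAAT in this window. Of all 25 listed genes 17 were matched and 16 held CCAAT, so it was not particular to those that fell. Of 27025 genes in the table, 37.5% held it, as did 40.6% of the 8724 tested genes that were matched. Among all genes that fell it was present in 24 of 30 matched, the 10 above included, and among those that rose in 15 of 54. Only Hmgcs1 of the 10 held TCACNCCAC, which 1.22% of all promoters held. Sterol response elements with other letters were not searched for, so the lack of this string does not show that an element is absent. These are matches of letters, and binding was not measured.

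The early steps build isoprenoid units. Hmgcs1, which makes HMG-CoA, was at 82.9, 157, 115 and 189 TPM in nulliparous mice NUL_220, NUL_221, NUL_226 and NUL_227. Its lowest, median and highest levels at involution were 41.9, 49.2 and 56.2 TPM. The groups did not overlap, and Hmgcs1 was 2.77-fold lower (difference -1.39, SE 0.18, adjusted p = 0.00431). Mvk and Mvd, a kinase and the decarboxylase of the mevalonate steps, fell by 0.91 and 1.17 on the log2 scale. Against all 7 nulliparous mice Mvd was at -0.73 (adjusted p = 0.134). Pmvk, the kinase that acts between them, had the smallest difference of the list. It was at 73.2, 82.5, 49.7 and 81.4 TPM in nulliparous mice and 48.4 to 90.0 TPM at involution, and the difference was -0.04 (SE 0.18, adjusted p = 0.961).

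Idi1, the isomerase that makes the allylic unit, was at 38.4, 59.5, 51.6 and 80.5 TPM in nulliparous mice. At involution it ranged from 9.05 to 20.1 TPM with a median of 12.2, below every nulliparous mouse. The ratio of means was 4.55 (difference -2.10, SE 0.22, adjusted p = 0.0017). Fdps, which joins the units into farnesyl pyrophosphate, was at 182, 293, 199 and 325 TPM against 76.1 to 177 TPM, so that the highest involution mouse lay just below the lowest nulliparous one, and the difference was -1.11 (SE 0.23, adjusted p = 0.0472). Fdft1, which makes squalene, overlapped between the groups and did not pass (-0.49, adjusted p = 0.0733).

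Sqle, squalene epoxidase, is a protein-coding gene at chr15:59315077-59331192 on the plus strand (GENCODE M21, GRCm38). It fell by more than any other gene of the list under TPM as deposited. Its levels were 12.2, 22.1, 22.6 and 40.8 TPM in nulliparous mice and 2.58 to 5.91 TPM at involution with a median of 3.42. The groups were apart, at a ratio of 6.07 (difference -2.27, SE 0.28, adjusted p = 0.00385). Lss, which closes the ring to lanosterol, was at 8.53 to 17.6 TPM at involution and 15.5 to 24.2 TPM in nulliparous mice, which overlap, and did not pass (adjusted p = 0.0895).

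The demethylation steps after lanosterol moved in the same direction. Cyp51, lanosterol demethylase, was at 26.1, 39.4, 37.4 and 64.0 TPM in nulliparous mice and 10.3 to 16.7 TPM at involution (difference -1.56, SE 0.20, adjusted p = 0.00391). Msmo1, the sterol methyl oxidase, was at 36.03, 61.2, 45.1 and 71.6 TPM in nulliparous mice and 8.60 to 14.5 TPM at involution, with a median of 10.9. Every involution mouse was below every nulliparous mouse, at 4.81-fold lower (difference -2.14, SE 0.18, adjusted p = 0.000576). Nsdhl and Hsd17b7, which act with Msmo1 on the same carbon, fell by 1.07 and 1.14, and Tm7sf2, a sterol reductase, fell by 0.90.

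Among the last enzymes, Dhcr7 fell by 0.96, while Ebp (-0.19) and Sc5d (-0.27) did not pass. Dhcr7 stood at the edge of the threshold (adjusted p = 0.0498). Stard4, a cytosolic sterol carrier, fell by 0.70. Insig1, an anchor of the SREBP proteins (-0.95, adjusted p = 0.235), and Srebf2 itself (-0.49, adjusted p = 0.0744) did not pass. The involution levels of Srebf2 were 10.3 to 14.1 TPM, below the 15.2 to 21.9 TPM of nulliparous mice.

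Mouse NUL_227, one of the libraries low in Rps27, had the highest TPM of the 4 nulliparous mice for Sqle, Msmo1, Idi1, Cyp51 and Hmgcs1. Without it 8 of the 25 genes fell, and without mouse NUL_221 it was 9. Leaving out any other single mouse left 11 to 15. Sqle, Msmo1, Idi1, Cyp51, Hmgcs1, Mvk and Mvd passed in each of the 10 fits that left out a mouse. Without the 4 libraries low in Rps27, 0 of the 25 passed in limma, 19 had an unadjusted p under 0.05, and the median difference was -0.71 and each gene remained below 0, with Sqle at -1.96 and Msmo1 at -1.94. With low Rps27 as a covariate 14 fell, and with no filter on low genes 7 did. Fdps passed in 2 of the 10 fits that left out a mouse (largest adjusted p 0.163), Nsdhl and Hsd17b7 in all but those without NUL_221 or NUL_227 (0.0591 and 0.055), and Stard4 in all but the one without NUL_227 (0.0568). Tm7sf2 and Dhcr7 passed in 5 and 2 of them (0.0873 and 0.164).

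In the lactating mice Sqle was at 52.7 to 74.3 TPM and Msmo1 at 74.5 to 87.1 TPM. Both ranges lie above all 10 mice compared here.

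**Figure D2:**
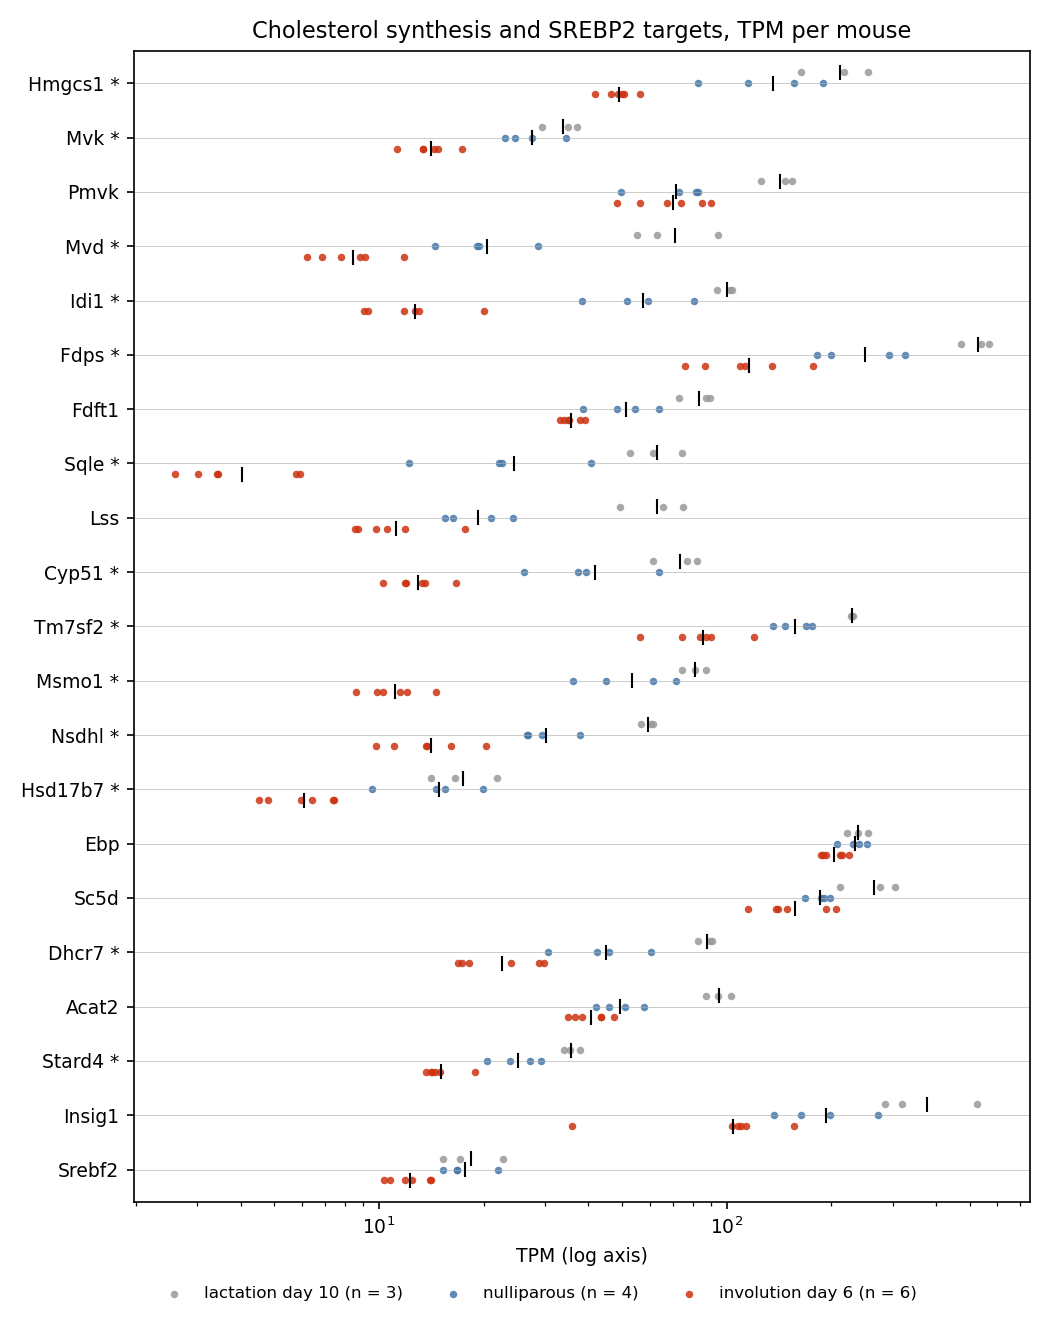
TPM per mouse (horizontal log axis) of 21 of the 25 genes of cholesterol synthesis and SREBP2 control. Enzymes run from Hmgcs1 to Dhcr7, followed by Acat2, Stard4, Insig1 and Srebf2, which are not placed by step. Mice are of lactation day 10 (grey), nulliparous (blue) and involution day 6 (red). Each point is 1 mouse, black ticks are group means and asterisks mark genes with an adjusted p under 0.05 between involution and nulliparous mice. For Sqle the involution mice sit at 2.58 to 5.91 and the nulliparous mice at 12.2 to 40.8.

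Other genes outside the list that fell include genes of lipid and cobalamin handling, named here after their values were seen. Pctp, which carries phosphatidylcholine between membranes, was at 13.5, 14.8, 10.2 and 11.7 TPM in nulliparous mice and 3.45 to 8.21 TPM at involution, with no overlap (difference -1.16, SE 0.19, adjusted p = 0.0149). Mmab, a cobalamin enzyme whose gene neighbours Mvk, fell by 0.84. The 2 genes lie head to head on chromosome 5, with Mmab at 114431034 to 114444060 on the minus strand and Mvk at 114444269 to 114460591 on the plus strand (GENCODE M21, GRCm38). Lipg, endothelial lipase, fell by 0.95. Pctp and Mmab did not pass without NUL_221 or NUL_227, nor Lipg without NUL_220, NUL_221, NUL_227, ID6_201 or ID6_209. Abcg5, a subunit of the transporter that secretes sterols into bile, moved the other way. It was at 56.2, 37.7, 53.8 and 57.9 TPM in nulliparous mice and 68.2 to 107 TPM at involution (difference 0.74, SE 0.14, adjusted p = 0.0298), but passed in 3 of the 10 fits that left out a mouse (largest adjusted p 0.0802) and not after median-ratio scaling (0.0892). Its partner Abcg8 was at 52.4 to 73.9 TPM against 31.4 to 47.6 TPM and did not pass (0.51, adjusted p = 0.124).

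Cyp4a14 had the largest fall by log2 difference. This enzyme hydroxylates the end carbon of fatty acids and is a target of the nuclear receptor PPARalpha, and its gene lies at chr4:115486200-115496142 on the minus strand. It was at 88.1, 103, 96.7 and 63.3 TPM in nulliparous mice, and its lowest, median and highest levels at involution were 3.69, 7.66 and 27.7 TPM. The highest, mouse ID6_232, was still below every nulliparous mouse, and the ratio of means was 8.24 (difference -3.19, SE 0.41, adjusted p = 0.00391). Without the 4 libraries low in Rps27 Cyp4a14 was at -2.91 and did not pass (adjusted p = 0.107). The neighbouring paralogs Cyp4a10 and Cyp4a31 had differences of -1.35 (adjusted p = 0.0919) and -0.89 (adjusted p = 0.0913) and overlapped between groups because of mouse ID6_232, where Cyp4a10 was at 50.2 TPM. How reads shared by these paralogs were divided is uncertain.

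Of the 32 genes of fatty acid oxidation and ketogenesis, 29 were below 0 and the median difference was -0.30, but only Cyp4a14 fell and 0 rose (0.37% of all genes fell). An unadjusted p under 0.05 was found for 18 of the 32 (1535 of all 11632 genes had one). The groups did not overlap for 9, all lower, against 0.954% of all genes that were lower without overlap. Fabp1, the fatty acid binding protein of hepatocytes, was at 4896 to 7035 TPM at involution, below the 7760 to 9760 TPM of nulliparous mice, and did not pass (-0.47, adjusted p = 0.0895). Decr1, a reductase for unsaturated fatty acids that was named after its values were seen, fell by 0.43 (SE 0.07, adjusted p = 0.0209), though not without NUL_221, NUL_226, NUL_227 or ID6_201 (largest adjusted p 0.0813). Among the 21 tested genes of fatty acid and triglyceride synthesis 0 passed, and 6 had an unadjusted p under 0.05. Srebf1, the factor that drives that program, was at 227.4 to 335 TPM at involution and 75.6 to 193 TPM in nulliparous mice, and did not pass (0.96, adjusted p = 0.0699). Scd1, a desaturase, was at 723 to 2842 TPM at involution and overlapped (0.84, adjusted p = 0.304). Fads2, another desaturase, had a difference of -0.66 (adjusted p = 0.0789).

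Lpl, lipoprotein lipase, had the largest rise among called genes. It releases fatty acids from circulating triglyceride and is scarce in adult liver, and its gene lies at chr8:68880491-68907448 on the plus strand. Lpl was at 4.36, 2.52, 7.63 and 9.78 TPM in nulliparous mice and 21.0 to 30.1 TPM at involution, with a median of 23.7. The groups were well apart, at 4.10-fold higher (difference 1.99, SE 0.25, adjusted p = 0.00391). Without the 4 libraries low in Rps27 the difference of Lpl was 2.23 and it did not pass (adjusted p = 0.0804). In the lactating mice it was at 37.3 to 72.7 TPM. Lpl is also abundant in fat tissue and macrophages. The adipocyte gene Adipoq was at 0.02 to 0.41 TPM in nulliparous mice and 0.12 to 2.95 TPM at involution, and Cfd was at 0.06 to 1.74 and 0.00 to 15.58 TPM (1.35, adjusted p = 0.369). Both were highest in mouse ID6_201. The summed level of the 9 listed adipocyte genes was 691 to 901 TPM in nulliparous and 424 to 747 TPM in involution mice. Most of that sum was Car3, at 669 to 885 and 405 to 722 TPM, so it says little about the other listed genes. The part of fat tissue in the result was not tested. Of 5 tested adipocyte markers 0 passed, and 3 had an unadjusted p under 0.05. Cd36, a fatty acid receptor, was at 24.8, 17.4, 17.4 and 16.3 TPM in nulliparous mice and 27.2 to 37.7 TPM at involution (difference 0.70, SE 0.12, adjusted p = 0.0219). It did not pass without NUL_221, NUL_226 or NUL_227 (largest adjusted p 0.0925), and with all 7 nulliparous mice its direction turned (-0.048, adjusted p = 0.939). Fitm1, a lipid droplet protein, was at 1.21 to 2.10 TPM in nulliparous and 0.10 to 0.77 TPM at involution and fell by 0.75 (adjusted p = 0.0497), a call lost without any 1 of the 6 involution mice. Fitm1 passed the filter only through the nulliparous mice. Without any 1 of them it was under a mean of 1 TPM and was not tested, and with all 7 nulliparous mice it was at -1.96 (adjusted p = 0.0564).

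Cyp2a4, a steroid and drug hydroxylase, was at 438, 352, 508 and 632 TPM in nulliparous mice and 914 to 1088 TPM at involution, with no overlap (difference 1.07, SE 0.13, adjusted p = 0.00385). It passed under every alternative tried, also without the 4 libraries low in Rps27 (1.28, adjusted p = 0.0334), and it was the 1 gene that rose of 39 tested P450 genes (0.636% of all genes rose), whose median difference was 0.02. Its near-identical paralog Cyp2a5 shares reads with it, so its level is uncertain. Rdh16f2, a retinol and steroid dehydrogenase of a family of close copies, was at 45.1, 22.6, 26.4 and 36.5 TPM against 93.4 to 153 TPM at involution (difference 1.86, SE 0.18, adjusted p = 0.00121). With all 7 nulliparous mice of the study its difference was 0.89 (adjusted p = 0.213). Without the 4 libraries low in Rps27 its difference was 1.77 (adjusted p = 0.0719). It was in none of the lists, and of 16 tested genes of retinoid handling 0 passed and 5 had an unadjusted p under 0.05. S100g, a calcium binding protein, was at 8.72 to 13.4 TPM in nulliparous mice and 15.1 to 37.1 TPM at involution (difference 1.12, SE 0.20, adjusted p = 0.0219). Ifi27l2b, an interferon-inducible gene, was at 2.80 to 5.11 TPM and 6.26 to 13.04 TPM (difference 1.003, SE 0.20, adjusted p = 0.0352). S100g passed in 5 and Ifi27l2b in 3 of the 10 fits that left out a mouse, with largest adjusted p of 0.0941 and 0.135, and with all 7 nulliparous mice S100g was at 2.40. Inmt and Hnmt, methyltransferases that act on small amines and on histamine, were named after their values were seen. They rose by 0.82 (adjusted p = 0.00806) and 0.66 (adjusted p = 0.00385), and both passed in each of those 10 fits. With all 7 nulliparous mice they were at 0.28 (adjusted p = 0.495) and 0.45 (adjusted p = 0.057) and did not pass. Ugt2a3, a glucuronosyltransferase, rose by 0.34 (adjusted p = 0.0207), though not without NUL_221 or NUL_227 (0.0813 at most) nor after median-ratio scaling (0.0972), and was at 0.22 with all 7 nulliparous mice. It was the 1 gene of 37 tested genes of phase II conjugation that rose (0.636% of all genes did).

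Several genes of unlike function fell by a log2 difference of more than 1. Slc39a5, a zinc importer, was at 7.74, 7.06, 7.48 and 5.88 TPM in nulliparous mice and 1.35 to 2.43 TPM at involution. The spread within each group was small beside the gap (difference -1.44, SE 0.13, adjusted p = 0.000576), and the fall held without the 4 libraries low in Rps27 (-1.67, adjusted p = 0.00598). Ntrk2, the receptor of the growth factor BDNF, was at 4.25, 3.30, 2.60 and 3.63 TPM against 0.26 to 1.39 TPM (-1.50, SE 0.19, adjusted p = 0.00385), and lactating mice were at 0.05 to 0.23 TPM. The involution mean of Ntrk2, 0.598 TPM, lay under the filter of 1 TPM, which the gene passed only through the nulliparous mice. With all 7 nulliparous mice its difference was -0.77 (adjusted p = 0.171), and with a pseudocount of 0.1 it was -2.53 (adjusted p = 0.01). Pcp4l1, a small calmodulin-binding protein, was at 43.7, 36.5, 45.7 and 52.8 TPM against 8.11 to 28.9 TPM (-1.52, SE 0.25, adjusted p = 0.016). Without NUL_227 its adjusted p was 0.0639, and with all 7 nulliparous mice its adjusted p was 0.0697. Oat, ornithine aminotransferase, an enzyme of hepatocytes around the central vein, fell by 0.74 (adjusted p = 0.0423), and passed only without NUL_226 or ID6_232 when single mice were left out. With all 7 nulliparous mice it was at -1.63. It was the 1 gene of 18 pericentral genes, and of 29 genes of amino acid metabolism, that passed (1.01% of all genes did).

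**Figure D3:**
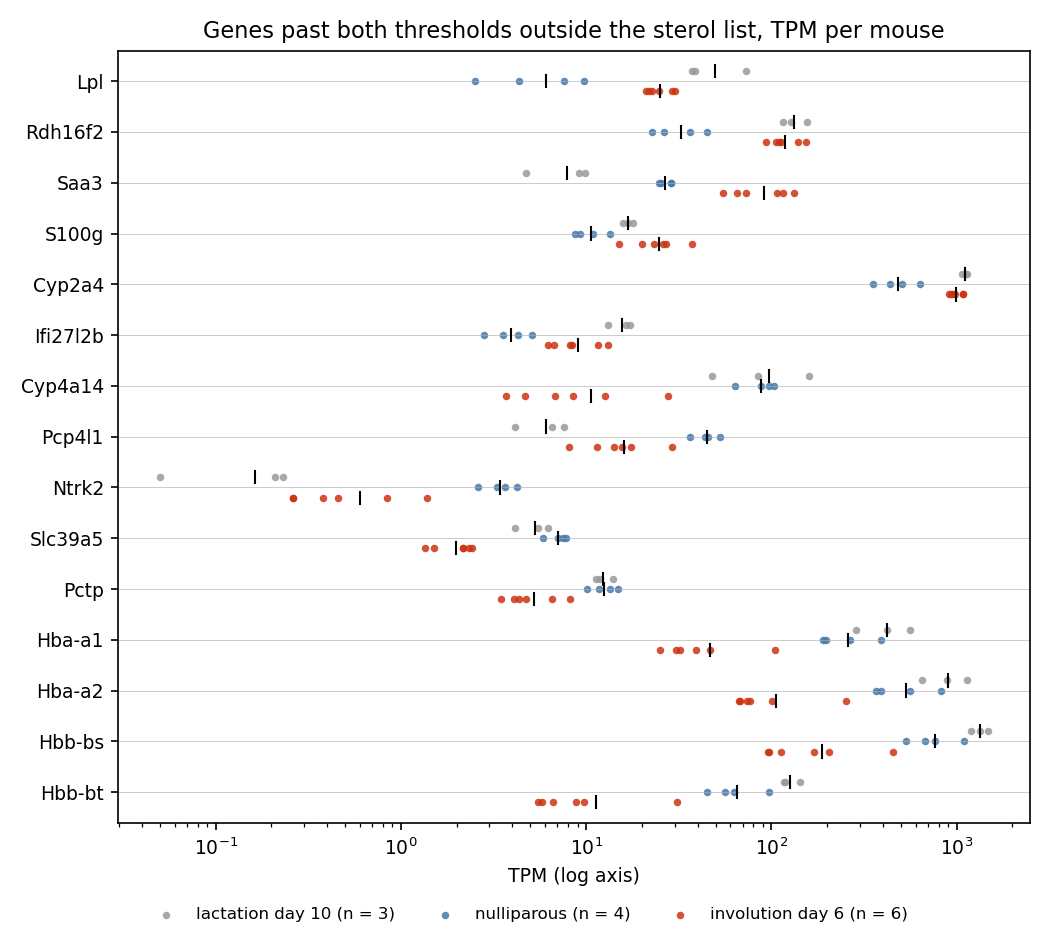
TPM per mouse (horizontal log axis) of 15 of the 16 genes outside the cholesterol list that passed an adjusted p of 0.05 with a log2 difference of 1 or more, an unnamed gene model being left out. Points are mice of lactation day 10 (grey), nulliparous (blue) and involution day 6 (red), and black ticks are group means. In no gene do the red and blue points overlap, and the lactating mice lie near the involution mice for Cyp2a4 and Rdh16f2 and far above them for the hemoglobin genes.

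Hemoglobin transcripts, which come from red cells in the tissue, were lower at involution day 6. Hba-a1 was at 265, 197, 390 and 189 TPM in nulliparous mice and 25.1 to 104 TPM at involution (difference -2.57, SE 0.34, adjusted p = 0.00431). Hbb-bs was at 764, 532, 1091 and 672 TPM against 96.1 to 452 TPM (-2.20, SE 0.38, adjusted p = 0.0207). Hba-a2 and Hbb-bt fell by 2.43 and 2.64. The groups did not overlap in any of the 4, although mouse ID6_216 stood above the other involution mice in each. The copies within the alpha and beta pairs share most of their sequence, so the split between them is uncertain. All 4 falls held without the 4 libraries low in Rps27 (-2.90 to -3.20). Hbb-bs did not pass without NUL_220, NUL_226 or NUL_227 (largest adjusted p 0.0624) nor with robust moderation (0.0697). With no filter on low genes 1 of the 4, Hba-a1, passed. Of 6 tested red cell genes 4 fell (0.37% of all genes did). Alas2, the erythroid enzyme of the first step of heme synthesis, had a difference of -0.73 (adjusted p = 0.23). Slc4a1 and Epb42, membrane proteins of red cells and their precursors, were listed at 0 in all 6 involution mice and at up to 0.35 TPM in nulliparous mice. Fewer cells of a type and less RNA per cell cannot be told apart in whole liver. The summed hemoglobin level was 1140 to 2400 TPM in nulliparous and 195 to 841 TPM in involution mice.

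Macrophage genes were higher at involution, by small amounts. Of 20 listed markers of Kupffer cells and macrophages 17 were tested, 9 rose and 0 fell, beside 0.636% of all genes that rose. Their median difference was 0.48, and 15 were above 0. The groups did not overlap for 12 of the 17, against 3.21% of all genes that were higher without overlap. This list too was chosen with earlier results of these data known. The summed level was 625 to 721 TPM in nulliparous mice, 838 to 1064 TPM at involution and 392 to 504 TPM in the lactating mice.

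Cd5l, a secreted protein of Kupffer cells that binds lipids and inhibits cell death, was the marker that held best. It was at 77.1, 62.2, 73.7 and 73.5 TPM in nulliparous mice, and its lowest, median and highest levels at involution were 104, 130 and 172 TPM. It was 1.86-fold higher without overlap (difference 0.88, SE 0.12, adjusted p = 0.00547) and passed in each fit that left out a mouse and after median-ratio scaling (adjusted p = 0.0253). Marco, a scavenger receptor, rose by 0.81 (2.15-fold) from levels near 2 TPM. Mpeg1, a pore-forming protein of macrophages, was at 33.4, 23.6, 23.6 and 28.8 TPM against 35.8 to 48.4 TPM (0.63, SE 0.11, adjusted p = 0.0195). Lyz2, lysozyme, was at 89.0, 84.2, 97.8 and 112 TPM against 119 to 147 TPM (0.50, SE 0.09, adjusted p = 0.0211). Adgre1 (the antigen F4/80), Vsig4 (a complement receptor), Cd68, Csf1r (the receptor of the growth factor CSF1) and C1qa rose by 0.33 to 0.51, with adjusted p of 0.0352 to 0.0487.

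The Kupffer cell markers Clec4f (0.38, adjusted p = 0.0856) and Timd4 (0.48, adjusted p = 0.0675) did not overlap between groups and did not pass. Spp1, a product of activated and lipid-laden macrophages and of bile duct cells, was at 26.3 to 35.97 TPM at involution and 30.4 to 44.2 TPM in nulliparous mice (-0.15, adjusted p = 0.638). The monocyte genes Ccr2 and Itgam were under a mean of 1 TPM and were not tested. Outside the list, Fcna, Folr2 and Clec1b, which Kupffer cells or sinusoidal cells make, rose by 0.45, 0.52 and 0.54 and were named after their values were seen. After median-ratio scaling their adjusted p were 0.166, 0.169 and 0.0899.

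These calls depended on the setting. After median-ratio scaling 1 of the 17 markers passed, after quantile normalization 3, after rescaling without the mitochondrial, hemoglobin and 10 most abundant genes 3, with a filter at 0.1 TPM 3 of 20, and with no filter 1 of 20. Leaving out single mice left 2 without NUL_220, 1 without NUL_221, 1 without NUL_226, 2 without NUL_227, 2 without ID6_201, 7 without ID6_209, 3 without ID6_216, 3 without ID6_218, 6 without ID6_230 and 3 without ID6_232. The median difference stayed between 0.37 and 0.51 in those 10 fits and was 0.43 after median-ratio scaling. Without the 4 libraries low in Rps27 0 passed in limma and 15 had an unadjusted p under 0.05, at a median of 0.46, and with low Rps27 as a covariate 4 did. Against all 7 nulliparous mice 14 rose.

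**Figure D4:**
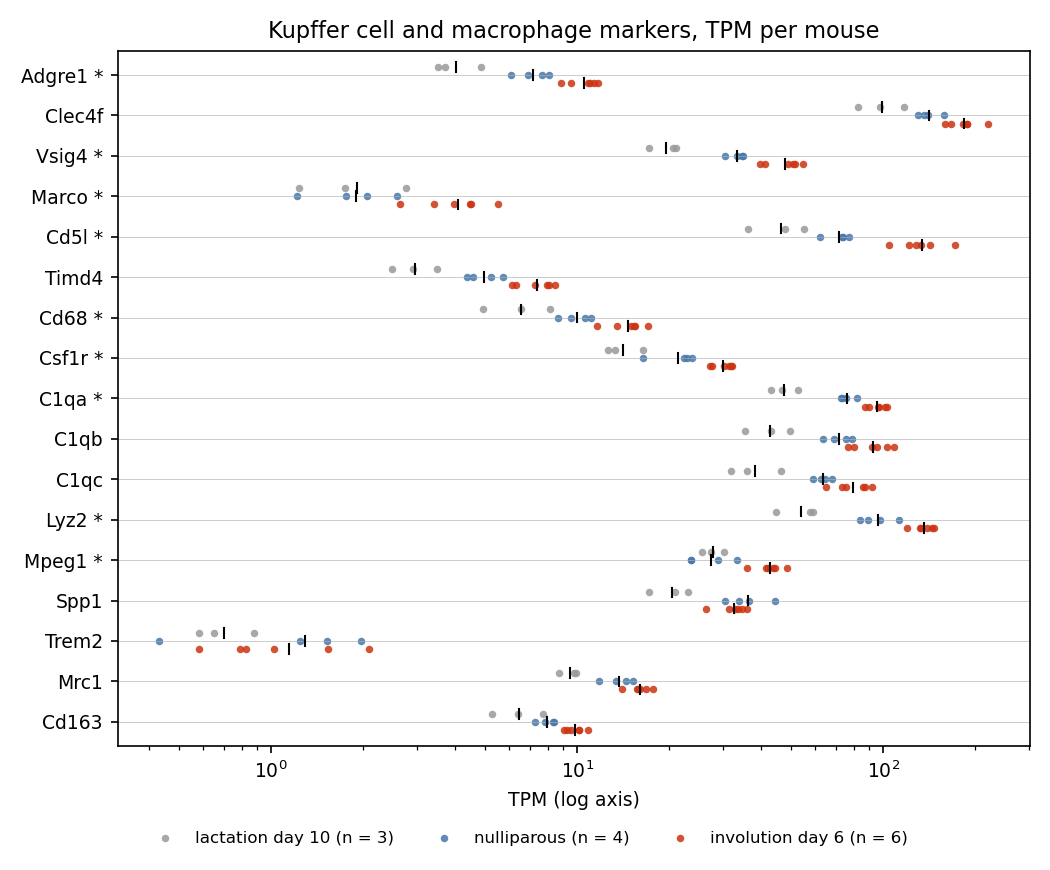
TPM per mouse (horizontal log axis) of the 17 tested Kupffer cell and macrophage markers for lactation day 10 (grey), nulliparous (blue) and involution day 6 (red) mice. Each point is 1 mouse, black ticks are group means and asterisks mark an adjusted p under 0.05 between involution and nulliparous mice. The red points of Cd5l (104 to 172) all lie to the right of the blue ones, whereas those of Spp1 and Trem2 overlap them.

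Some lysosomal and interferon genes passed. Of 31 tested autophagy and lysosome genes 3 rose (0.636% of all genes did), at a list median of 0.07 beside 0.05 for all genes, and 9 were below 0. The groups did not overlap for 7, all higher, against 3.21% of all genes that were higher without overlap. Among the 3 that rose were the proteases Ctss (0.49, adjusted p = 0.0487) and Ctsb (0.35, adjusted p = 0.0351). Of 32 genes of the interferon response and antigen presentation 2 rose (0.636% of all genes did), at a list median of 0.16 with 10 below 0. The groups did not overlap for 3 of the 32, all higher. The 2 that rose were the class I heavy chain H2-K1 (0.37, adjusted p = 0.0497) and the antiviral tether Bst2 (0.40, adjusted p = 0.0488). None of these 4 named genes passed after median-ratio scaling or in each of the fits that left out a mouse. H2-Q7, another class I gene of a family with close copies that was named after its values were seen, was at 8.69, 6.92, 7.10 and 6.65 TPM in nulliparous mice and 10.7 to 15.1 TPM at involution (0.71, SE 0.10, adjusted p = 0.00817), and passed in each. With all 7 nulliparous mice it was at 1.44. The immunoglobulin chains Ighm and Igkc had differences of 0.74 and 0.58 without overlap and did not pass (adjusted p = 0.0553 and 0.0808). Of 10 tested lymphocyte markers and 3 tested neutrophil markers 0 passed. An unadjusted p under 0.05 was found for 7 and 1 of them (1535 of all 11632 genes). The summed lymphocyte marker level, most of it Ighm and Igkc, was 40.4 to 61.9 TPM in nulliparous and 68.8 to 88.5 TPM in involution mice.

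Saa3, an inflammation-induced serum amyloid A made by macrophages and hepatocytes, was the 1 gene of 32 acute phase genes that rose (0.636% of all genes did). It was at 28.6, 28.6, 25.4 and 24.7 TPM in nulliparous mice and 54.8 to 132 TPM at involution, with a median of 90.3. The lowest involution mouse was above every nulliparous one (difference 1.66, SE 0.22, adjusted p = 0.00431), and lactating mice were at 4.74 to 9.85 TPM. Without the 4 libraries low in Rps27 Saa3 was at 1.79 and did not pass (adjusted p = 0.0719). Saa1 and Saa2, the hepatocyte forms, did not pass (1.13 and 1.15, adjusted p = 0.367 and 0.357). Saa1 was at 315 TPM in mouse NUL_221 and at 31.8 to 54.2 TPM in the other 3, against 100 to 253 TPM at involution. Without mouse NUL_221 both passed (adjusted p = 0.0137 for each). Orm3, an orosomucoid, was at 7.62 to 19.2 TPM against 1.55 to 6.01 TPM (1.28, adjusted p = 0.0675), and Hpx, hemopexin, which binds free heme, overlapped (0.56, adjusted p = 0.201).

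Of 35 coagulation and complement genes 3 rose (0.636% of all genes did) and 31 were above 0 (65.4% of all genes were), at a median of 0.20. The groups did not overlap for 9, all higher, against 3.21% of all genes that were higher without overlap. Pros1, protein S, which acts in anticoagulation and also marks dying cells for uptake, was at 18.7, 18.4, 17.6 and 18.0 TPM in nulliparous mice and 24.9 to 29.3 TPM at involution. Neither group varied by more than a few TPM, and the rise of 1.47-fold held in each fit that left out a mouse (difference 0.53, SE 0.06, adjusted p = 0.00385). Without the 4 libraries low in Rps27 Pros1 was at 0.58 and did not pass (adjusted p = 0.0902). The complement genes C6 and C1ra rose by 0.62 and 0.37 (adjusted p = 0.0219 for both), and neither passed after median-ratio scaling (0.0785 and 0.0744) nor without NUL_220, NUL_221 or NUL_227. Apoe, an apolipoprotein of hepatocytes and macrophages, was at 46967 to 61492 TPM at involution and 40574 to 44894 TPM in nulliparous mice, apart but not past the threshold (0.40, adjusted p = 0.149).

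Bile acid genes were among those the study examined across the reproductive cycle. Of 15 tested genes of bile acid synthesis and conjugation 0 passed and 6 had an unadjusted p under 0.05. Of 16 tested receptors and transporters 1 rose (0.636% of all genes did), the Abcg5 described above. Cyp7a1, which catalyses the first and limiting step from cholesterol to bile acids, was at 22.1, 18.7, 15.0 and 18.0 TPM in nulliparous mice. At involution 4 mice were at 8.95 to 13.1 TPM and mice ID6_230 and ID6_232 at 72.9 and 57.2 TPM, on both sides of the nulliparous range (0.17, SE 0.53, adjusted p = 0.931). Cyp8b1, which directs synthesis to cholic acid, was at 132 to 243 TPM against 215 to 284 TPM (-0.54, adjusted p = 0.119). Cyp27a1, the first enzyme of the alternative route, had a difference of 0.18 (adjusted p = 0.516). The receptors Nr1h4 (FXR) and Rxra and the repressor Nr0b2 (SHP) had differences of 0.03, -0.11 and 0.35 (adjusted p = 0.954, 0.694 and 0.642). Foxm1, a driver of cell division, had a mean of 0.332 TPM and was not tested. Of 14 tested cell cycle genes 0 passed, and 3 had an unadjusted p under 0.05 (1535 of all 11632 genes did).

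Of 32 gene pathway lists, 18 had 0 genes past the threshold. They included the 79 cytosolic ribosomal proteins, 73 of which were above 0 at a median of 0.14 and 31 with an unadjusted p under 0.05. Another was the 13 protein genes of the mitochondrial genome, each below 0 at a median of -0.34 and 9 with an unadjusted p under 0.05. Groups did not overlap for 13 of the ribosomal genes, all higher (3.21% of all genes were), and for 1 of the mitochondrial, which was lower (0.954%). Igf1, the growth factor that liver secretes under growth hormone, was at 577 to 738 TPM at involution and 618 to 759 TPM in nulliparous mice (-0.09, adjusted p = 0.717). Dio1, the deiodinase that activates thyroid hormone, was at 24.1 to 54.6 TPM against 53.4 to 80.3 TPM (-0.76, adjusted p = 0.112). Of the other markers, 0 of 17 stellate cell, 0 of 17 endothelial and 0 of 3 cholangiocyte genes passed. An unadjusted p under 0.05 was found for 2, 5 and 0 of them (1535 of all 11632 genes). Cela1, an elastase of exocrine pancreas, was at 27.9, 25.6, 29.3 and 31.2 TPM in nulliparous mice and 17.1 to 21.1 TPM at involution and fell by 0.55 (SE 0.08, adjusted p = 0.0101). Of 16 listed pancreas genes 2 were tested. The summed level of the 16, most of it Cela1 itself, was 27.2 to 35.8 TPM in nulliparous and 17.8 to 29.4 TPM in involution mice. The amylase Amy2a5, at up to 4.62 and 8.35 TPM, did not pass. The milk protein genes Csn1s1, Csn2, Csn3, Wap and Lalba were listed at 0 in all 10 mice.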

How the data were processed

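RNA-seq was made from the liver of 19 mice, 1 library per mouse, and 10 are compared here. The deposited values are TPM per gene with 2 decimals. Per the submitters' processing notes the authors quantified genes with RSEM 1.3.1 on the build GRCm38. The authors tested counts with DESeq2, and those counts were not used here. TPM keeps no depth, so the depth behind a value is unknown and no counting intervals are given. RSEM divides reads shared by near-identical copies, so levels of close paralogs are uncertain.

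Groups came from the labels. A pseudocount of 1 was added, genes with a mean of 1 TPM or more were kept, and log2 values were tested with limma 3.58.1 (trend, two-sided) in R 4.3.3 with Benjamini-Hochberg adjustment over 11632 genes. Mice are separate animals, and only the 10 mice entered the fit. Tables and plots were made with Python 3.11.15, pandas 2.3.3 and matplotlib 3.10.9. In simulated data with 200 changed genes of 11632, a log2 change of 0.5 was recovered in 117, of 1 in 190 and of 1.5 in 197, with 3, 10 and 11 unchanged genes called. The changed genes were drawn only from those not at low TPM. Each gene varied independently of the others, unlike in these libraries, so recovery in the real data may be lower.

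The members and gene lists were chosen with earlier results of these data known. Named genes are those past both thresholds with groups that do not overlap (up to 12 in each direction, unnamed models only among the 5 largest), up to 6 members per list past the adjusted p or otherwise the 2 most abundant, the 7 genes the study plots, and markers of other cell types that passed or were at 0. Further genes are marked as named after their values were seen. Alternatives were the pseudocount, the filter, the scaling, robust moderation, array weights, the mice in the fit and leaving out each mouse. Leaving out or adjusting for the 4 libraries low in Rps27 (under 1500 TPM) was added after seeing the data. Gene positions are from GENCODE M21 and promoters from RefSeq, matched by symbol, and a symbol with several promoters was counted if any held the motif. Some genes of the lists are counted but not reported by name here.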

Additional observations from a re-analysis of the deposited data

Results flagged for a closer look

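A mouse standing apart from its group was looked for in 194 groups of values (97 genes in nulliparous and in involution day 6 mice), by the gap of the highest or lowest mouse to its neighbour as a share of the group's range. The gap was beyond Dixon's 95% critical value in 16, and chance alone gives about 1 group in 20. The groups are not independent, since genes of 1 pathway move together within a mouse.

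Mouse ID6_216 stood above the other 5 in all hemoglobin genes, with gaps of 0.833 (Hbb-bt), 0.726 (Hba-a1), 0.82 (Hba-a2) and 0.697 (Hbb-bs) of the range, and below them in Fitm1 (0.746, 0.1 TPM beside 0.6 in the next mouse). Its Hba-a1 was at 104 TPM beside 46.8 in the next mouse, and still under the lowest nulliparous mouse. Mouse ID6_232 was high in Cyp4a14 (0.63) and Cyp4a10 (0.688), the latter at 50.2 TPM beside 22.5 in the next mouse. Mouse ID6_230 was high in the sterol genes Idi1 (0.641) and Stard4 (0.742), and mouse ID6_218 in Lss (0.629).

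Mouse NUL_221 was high in Saa1 (0.921) and Saa2 (0.949), at 315 and 224 TPM beside 54.2 and 36.7 in the next mice, and low in Abcg8 (0.966). Single nulliparous mice were also high in Cd36 (NUL_220, 0.862), C6 (NUL_226, 0.865) and Apoe (NUL_227, 0.885). The causes were not tested.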

How the results depend on the processing

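The count of genes that rose or fell moved with the setting, and the cause was not tested. Those that rose numbered 43 with a filter at 0.1 TPM, 21 with no filter, 29 after median-ratio scaling, 36 after quantile normalization, 43 after rescaling, 493 with all 7 nulliparous mice, 214 with all 19 mice and the number range as a covariate, and 1 without the 4 libraries low in Rps27, against 74. Those that fell numbered 15 with no filter, 73 after median-ratio scaling, 65 with all 13 mice numbered 200 and above, 170 with all 7 nulliparous mice, 84 with all 19, and 5 without the 4 libraries, against 43. With a log2 difference of 1 as well, 11 rose with a pseudocount of 0.1, 19 with all 7 nulliparous mice, 11 with all 19 and 1 without the 4 libraries, against 6, and 9 fell with no filter, 36 with all 7 nulliparous mice and 5 without the 4 libraries, against 19. Leaving out single mice gave 16 to 67 that rose and 17 to 44 that fell, or 4 to 10 and 11 to 23 with the fold. The fewest calls came without NUL_227, where 31 of 114 tested were called again, and then without NUL_221, with 36 of 114. Of 60 called genes in the text, 23 passed in each fit that left out a mouse and 16 under every alternative other than those on Rps27. Differences near 0 changed sign. Nr1h4 was at -0.021 after median-ratio scaling, -0.018 after quantile normalization, -0.0016 with array weights, -0.14 with all 7 nulliparous mice, -0.015 without the 4 libraries and -0.054 to 0.13 without single mice. Cyp7a1 was at -0.11 with all 7 nulliparous mice, -0.18 without ID6_230 (the lowest value without a single mouse, where the highest was 0.39) and -0.12 without ID6_232. Rxra was at 0.091 with all 7 nulliparous mice and 0.0053 without the 4 libraries. Pmvk was at -0.20 to 0.062 without single mice, above 0 without NUL_221, NUL_227, ID6_201 or ID6_232. Cd36, which rose, was at -0.048 with all 7 nulliparous mice. No paired analysis was possible because the groups share no replicate numbers. TPM holds no depth, so changes in genes at low TPM may be within counting error.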
